A study of Mus musculus with 8 samples.

Results

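The 4 adult hemoglobin genes of the mouse, Hba-a1, Hba-a2, Hbb-bs and Hbb-bt, were followed through every cell type, library and droplet of a single-cell RNA-seq study of brain tissue. They were taken by gene symbol as 4 of the 31053 genes in the matrices, and were selected on their levels by cell type, tissue and library in these same data. Those levels are therefore given as a description. The genotype comparison at the end uses the same sums per library. Its counts of members called, or under an unadjusted p, are a description too. They are set beside the share called or the count over all genes, and no p of a member is taken as evidence. Cell types are those of the authors' own annotation, which covers 23687 cells in 8 libraries. A cell or barcode with 10 or more UMIs (unique molecular identifiers, each a counted RNA molecule) of the 4 genes together is called hemoglobin-high below.

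The study compared wild-type (WT) mice with littermates heterozygous for a frameshift deletion in Setd1a (Setd1a+/-), a gene for a histone H3 lysine 4 methyltransferase. The founders were made by CRISPR in hybrid zygotes and backcrossed to C57BL/6N. Prefrontal cortex (PFC) and striatum, which the labels call NAc, were each profiled in 2 WT and 2 Setd1a+/- libraries, and each library pooled tissue from 2 mice. All groups were untreated C57BL/6N males, 8 to 10 weeks old by the labels, while the study's methods give an older range. Tissue was digested with papain and cleared of debris on a density gradient, and perfusion of the vessels is not mentioned in the sources used here.

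The libraries held 15154268 to 26277553 UMIs and 1508 to 4361 annotated cells, with a median of 2303 to 3042 UMIs per cell. Pairs of libraries shared 1 to 24 cell barcodes. Annotated types carried their own markers: of the markers checked, the labelled type had the highest level for 24 of 24 in PFC and 28 of 30 in striatum. Setd1a differed between genotypes by a log2 fold change of -0.39 (SE 0.43) in PFC and -0.38 (SE 0.28) in striatum, and neither passed edgeR's quasi-likelihood test. Where the counted 3' tags lie relative to the deleted stretch was not examined. Since neither difference passed, this level does not check the genotype labels.

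Hemoglobin carries oxygen as a tetramer of paired alpha and beta chains, each holding a heme group. It is made in large amounts while red cell precursors mature in the bone marrow, and the reticulocyte that enters the blood has lost its nucleus but still holds globin mRNA, which decays as the cell ages. Brain tissue that has not been cleared of blood therefore carries globin mRNA in its vessels. Hba-a1 and Hba-a2 encode alpha chains, and Hbb-bs and Hbb-bt encode the beta chains that C57BL strains carry in place of the major and minor genes of other strains.

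Each gene has 3 exons. In the GRCm38 annotation the alpha genes lie on the plus strand at chr11:32283511-32284465 (Hba-a1) and chr11:32296489-32297298 (Hba-a2), 12.0 kb apart. The beta genes lie on the minus strand at chr7:103826534-103828096 (Hbb-bs) and chr7:103812524-103813996 (Hbb-bt), 12.5 kb apart and 23.9 Mb from Setd1a on the same chromosome. Their proximal promoters are shown because the 4 genes are compared with each other throughout. Each runs from 130 bases before to 10 bases after the RefSeq start in GRCm38.p6, on the gene's own strand, at chr11:32283542-32283681 (Hba-a1), chr11:32296362-32296501 (Hba-a2), chr7:103827919-103828058 (Hbb-bs) and chr7:103813914-103814053 (Hbb-bt). The RefSeq starts differ from those of the gene positions given above. The windows of Hba-a1 and Hbb-bs lay wholly inside those gene positions, and the other windows in part. Capitals mark the CACCC box, the CCAAT box, the GATAA core and the TATAA box, each searched on both strands.
Hba-a1: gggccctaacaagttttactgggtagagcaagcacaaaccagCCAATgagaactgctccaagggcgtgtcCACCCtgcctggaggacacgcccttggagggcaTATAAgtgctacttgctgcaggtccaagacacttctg
Hba-a2: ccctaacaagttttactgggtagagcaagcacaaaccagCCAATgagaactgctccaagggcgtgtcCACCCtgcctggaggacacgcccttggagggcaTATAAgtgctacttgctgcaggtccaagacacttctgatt
Hbb-bs: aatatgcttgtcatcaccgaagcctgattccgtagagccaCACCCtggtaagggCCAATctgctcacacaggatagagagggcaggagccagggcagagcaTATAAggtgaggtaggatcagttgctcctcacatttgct
Hbb-bt: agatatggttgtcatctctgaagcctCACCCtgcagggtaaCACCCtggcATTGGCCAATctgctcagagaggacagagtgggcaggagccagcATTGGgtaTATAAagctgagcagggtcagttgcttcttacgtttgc

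All 4 windows hold a CCAAT box with a CACCC box and a TATAA box, and Hbb-bt holds CACCC 2 times and CCAAT 3 times, of which 1 pair adjoins without overlap. GATAA, the core of the site bound by GATA factors, falls outside these windows and occurs 1 time in the longer 300-base promoter of each gene. In the 300-base promoters of all 32851 RefSeq genes, CACCC occurred in 57.5%, CCAAT in 37.4%, GATAA in 25.4% and TATAA in 24.9%. The matches describe letters only. The alpha promoters were identical at 98.0% of positions and the beta promoters at 71.3%. Over their longest transcripts, Hba-a1 and Hba-a2 differed at 1 of 538 aligned bases and Hbb-bs and Hbb-bt at 45 of 626. With gaps counted, as for the promoters, these transcripts were identical at 75.1 and 82.4% of positions. Of the 90-base stretches of Hba-a1, 58.9% occurred in Hba-a2, and of those of Hbb-bs 63.3% occurred in Hbb-bt. These transcripts were 699 and 554 bases long for Hba-a1 and Hba-a2, and 628 and 703 for Hbb-bs and Hbb-bt. The shares with gaps and of stretches therefore depend on annotated length. They cover whole transcripts, while UMIs count 3' ends. The division of UMIs within each pair is therefore uncertain where reads could not be assigned.

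The 4 genes gave 1153354 UMIs in all, of which Hbb-bs made up 58.4%, Hba-a1 20.2%, Hba-a2 14.8% and Hbb-bt 6.54%. Most of this RNA lay outside the annotated cells, which held 9.29 to 22.5% of a library's hemoglobin UMIs. Over all barcodes, hemoglobin reached 16830, 2007, 5396 and 5232 CPM (UMIs of a gene scaled to 1000000 UMIs) in PFC WT 1, WT 2, Setd1a+/- 1 and Setd1a+/- 2. In striatum it reached 6309, 7738, 8845 and 4878 CPM in the same order. PFC WT 1 and PFC WT 2, of the same group, were the highest and the lowest of the 8 libraries, 8.39-fold apart, and both striatal genotypes overlapped. Levels here are UMIs, which count 3' ends and are not divided by gene length.

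Within the annotated cells the mean was 22.8, 1.71, 8.21 and 7.82 hemoglobin UMIs per cell in PFC, and 7.53, 11.3, 11.3 and 4.35 in striatum. These means came from few cells: 18937 cells (79.9%) had no hemoglobin UMI, and the 317 hemoglobin-high cells (1.34%) held 94.6 to 98.3% of the hemoglobin UMIs of each library's cells. The threshold of 10 fell in a sparse range, with 18 cells at 5 to 9 UMIs just outside it and 16 at 10 to 19 just inside. At the upper end, 251 cells had 100 or more, and the largest value in a library ranged from 1107 to 3578.

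**Figure D1:**
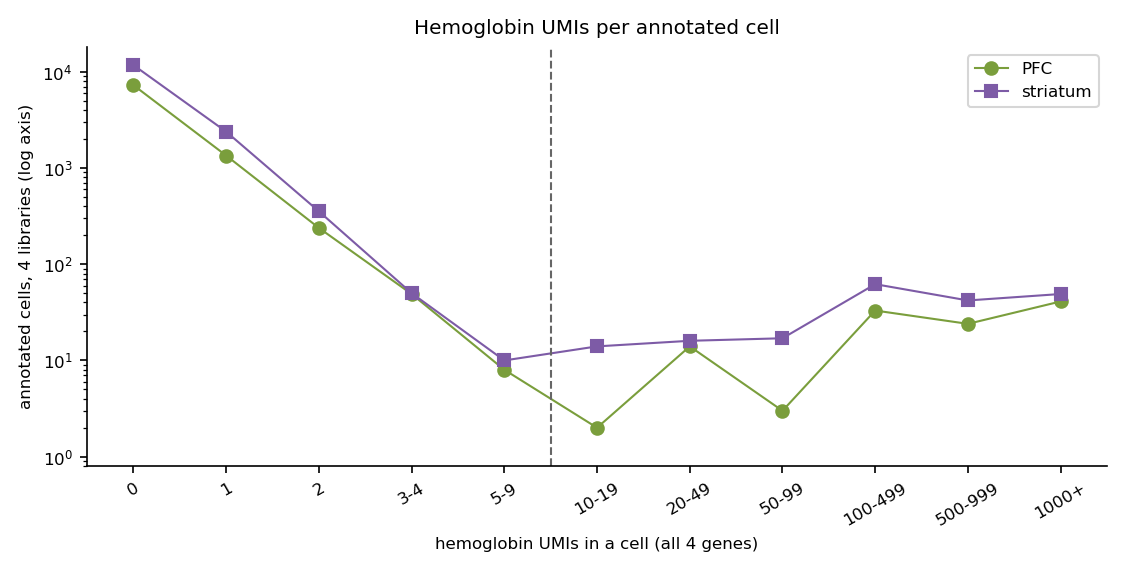
Number of annotated cells (log axis, 4 libraries summed per tissue) by hemoglobin UMIs in the cell, binned; circles are PFC, squares are striatum, and the dashed line marks 10 UMIs. Cells are fewest between 5 and 99 UMIs and more numerous at 100 or more in both tissues.

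Hemoglobin-high cells were mostly labelled endothelial, a label whose cells also carried mural markers, as given below. Endothelial cells line blood vessels, and mural cells surround them. Endothelial cells made up 269 of the 317 high cells, or 84.9%, and 15.0% of all annotated cells. High cells were 8.01, 3.51, 5.37 and 10.2% of the endothelial cells in PFC WT 1, WT 2, Setd1a+/- 1 and Setd1a+/- 2, and 7.08, 9.60, 6.01 and 15.1% in the striatal libraries in that order. In all other types together, 48 of 20127 cells (0.238%) were high. The endothelial level over all its cells was 25724, 4853, 10698 and 25724 CPM in PFC and 15906, 23893, 17164 and 14208 CPM in striatum.

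The high endothelial cells held markers of their label. Cldn5, a tight junction gene of brain endothelium, was found in 75 to 100% of them per library and in 85.6 to 97.6% of the remaining endothelial cells. The summed endothelial markers stood at 6091 CPM in high cells and 6621 CPM in the rest, where the denominator leaves out the 4 genes. Mural markers summed to 4308 and 4377 CPM in the same order, so the label was not of endothelial RNA alone. Libraries differed in this: in PFC WT 2 the endothelial markers stood at 3693 CPM in high cells and 5977 CPM in the rest, and in striatum Setd1a+/- 2 mural markers stood at 2508 and 4089 CPM and Cldn5 was found in 75 and 85.6% of cells. The median of other UMIs in high endothelial cells was 1.02 to 1.29 times that of the rest. Alas2, the erythroid enzyme of the first step of heme synthesis, had a UMI in 149 of the 269 high cells (55.4%) and in 0 of the 3291 others, which allows a share of up to 0.0912% of cells with an Alas2 UMI. This limit is pooled over 8 libraries, covers counting error only and does not limit cells that hold the transcript. The erythroid marker list summed to 733 CPM in high endothelial cells and 0.222 CPM in the rest, with Rhag and Slc4a1 at 0 UMIs in the high cells. No doublet caller was run, and the part of joint capture of several cells in 1 droplet was not tested.

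Outside the annotation, 101 to 239 barcodes per library were hemoglobin-high, 1386 in all, and held 71.2 to 84.3% of all hemoglobin UMIs. They were small: the median was 395 to 812 UMIs and 40 to 87 genes, of which hemoglobin made up a median of 60.4 to 92.8%. Between 95.3 and 99.4% of them had fewer genes than any annotated cell, the lowest of which had 800. Together, high cells and high outside barcodes accounted for 92.2 to 96.5% of the hemoglobin UMIs of each library.

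Several other genes were higher beside hemoglobin in these outside barcodes than in cells. Taking the genes with at least 20 UMIs there, the largest fold over the annotated cells that were not high belonged to Alas2 (862 UMIs, 26122-fold). Others of the 10 largest were Hbq1a, a theta globin (37 UMIs, 259-fold), Rec114 (74 UMIs, 210-fold), Fam46c (72 UMIs, 190-fold) and Isg20 (112 UMIs, 106-fold). Lower in the order were Ube2l6 (75.4-fold), Rsad2 (27.3-fold), Slc25a37, the mitochondrial iron importer mitoferrin (22.5-fold), and Cd24a (15.3-fold). Rec114, Rsad2 and Cd24a are in none of the gene lists used here. Each gene named had UMIs in the outside barcodes of all 8 libraries. All the named genes were also higher there than in endothelial cells that were not high. In that comparison Rsad2 stood at 288 CPM outside and 81.0 CPM in those cells, Ube2l6 at 855 and 58.5 CPM, and Isg20 at 262 and 17.3 CPM. Barcodes were chosen on hemoglobin, so these folds are a description.

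Of the 32 listed red cell genes, 30 were in the matrices, 14 reached 20 UMIs in the outside barcodes and 11 of those were over 2-fold higher there. Over all 3673 genes with 20 UMIs there, 15.4% were. The minimum favours genes that are high in these barcodes, so neither count is support. Bpgm, which makes the oxygen-releasing metabolite 2,3-bisphosphoglycerate, was 8.31-fold higher, Mkrn1 4.10-fold and the mitophagy receptor gene Bnip3l 4.02-fold. Car2, a carbonic anhydrase (0.680-fold), and Prdx2, a peroxidase (0.981-fold), were not, with 74650 and 37078 UMIs in the cells that were not high. Genes of the precursor stage had few UMIs: the transcription factor genes Klf1 and Gata1 had 0 and 1. A count of 0 there allows up to 7.03 CPM, beside 0.219 CPM for Klf1 in the cells that were not high. The 1 UMI of Gata1 is 2.34 CPM, beside 0.0129 CPM in those cells, so these counts do not show absence. Of 25 heme and iron genes, 13 reached 20 UMIs and 7 were over 2-fold higher under the same minimum, among them Slc40a1, the iron exporter ferroportin (4.36-fold), Fech, the last enzyme of heme synthesis (3.44-fold), and the ferritin light chain gene Ftl1 (3.05-fold). Some of these were no higher than in endothelial cells that were not high: Slc40a1 stood at 209 CPM outside and 377 CPM in those cells, Alas1 at 185 and 276 CPM, and Tfrc, the transferrin receptor gene, at 134 and 253 CPM. The ferritin heavy chain gene Fth1 (0.667-fold) and Trf, transferrin (0.333-fold), were lower. Compared with endothelial cells that were not high, however, Car2, Prdx2, Fth1 and Trf were each higher outside. Car2 stood at 654 CPM outside and 168 CPM in those cells, and Prdx2 at 469 and 265 CPM. Fth1 stood at 4187 and 2417 CPM, and Trf at 356 and 66.9 CPM. Of 9 other globin genes only Hbq1a reached 20 UMIs. Hba-x and Hbb-y, embryonic globins, had 0 UMIs, and Ngb and Cygb, the neuronal and cellular globins, had 2 and 3.

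Markers of other blood cells gave few UMIs in the outside barcodes. Neutrophil markers had 0 UMIs of 426760, which allows up to 7.03 CPM, beside 0.412 CPM in the cells that were not high. Lymphocyte markers had 6 UMIs, all in striatum Setd1a+/- 2 (14.1 CPM beside 2.93 CPM), and platelet markers 8 (18.7 CPM beside 15.2 CPM). Endothelial markers summed to 3381 CPM there and 801 CPM in the cells that were not high, mural markers to 1338 and 536 CPM and microglial markers to 487 and 239 CPM. Their part in the result was not tested. Across cell types and libraries, with the high cells kept, the gene most like the hemoglobin total was Alas2, with a Pearson correlation of log CPM of 0.89 over 32 points in PFC (10991 genes) and 0.88 over 38 points in striatum (11420 genes). The next were Hspa1b (0.74), Plscr2 (0.73), Ppp4r3b (0.71) and Tcf7 (0.70) in PFC, and Dcn (0.71), Usp18 (0.68), Pcnx (0.67) and Plat (0.67) in striatum. Without the high cells Alas2 was not among the 5 most alike genes, which were led by Rps27rt (0.69) in PFC and Chkb (0.51) in striatum. Pairs of members correlated at 0.86 to 0.97 with the high cells and at -0.31 to 0.66 without them. Points of 1 library share its depth and its hemoglobin level.

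Without the high cells, hemoglobin was found at a low level in every type. The 23370 remaining cells held 5342 hemoglobin UMIs, or 117, 23.4, 56.6 and 34.2 CPM in PFC WT 1, WT 2, Setd1a+/- 1 and Setd1a+/- 2, and 49.8, 112, 75.9 and 55.4 CPM in striatum. The free RNA of the same libraries, taken as the barcodes of 1 to 50 UMIs, held 8219, 701, 2162 and 1568 CPM in PFC and 1290, 4603, 2285 and 1764 CPM in striatum. Libraries with more hemoglobin in free RNA had more in their cells, apart from PFC Setd1a+/- 2 and striatum WT 1, whose order was exchanged, and PFC WT 2 was lowest and PFC WT 1 highest in both. Over the 8 libraries the correlation was 0.93 (Pearson, log2 scale) and 0.98 (Spearman), given without a p because both values come from the same library. The 4 Setd1a+/- libraries, at 1568 to 2285 CPM in free RNA, lay between the WT libraries, of which 2 were above them and 2 below.

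**Figure D2:**
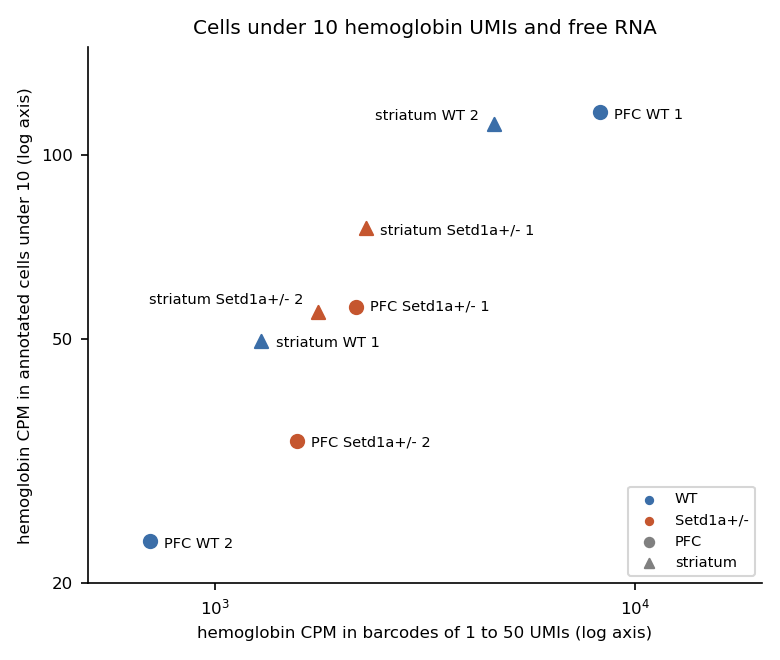
Hemoglobin CPM in annotated cells under 10 hemoglobin UMIs against CPM in barcodes of 1 to 50 UMIs (both log axes), 1 point per library; circles are PFC, triangles striatum, blue WT and orange Setd1a+/-. The points rise together from PFC WT 2 (701 and 23.4 CPM) to PFC WT 1 (8219 and 117 CPM).

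The level in these cells was 1.43 to 3.34% of that in free RNA in PFC and 2.44 to 3.86% in striatum. Over all 8 libraries its median was 2.88%. Microglial markers in cells of other types were at 3.38 to 12.5% of their free RNA level (median 7.10%), and endothelial markers at 5.87 to 10.8% (median 7.07%). The marker lists had no limit on UMIs per cell, while cells of 10 or more hemoglobin UMIs were left out of the hemoglobin share, so the shares are not compared. With those cells kept, hemoglobin stood at a median of 87.6% of its free RNA level in PFC and 130% in striatum. With free RNA taken as barcodes of 1 to 10 UMIs the hemoglobin share was 1.31 to 2.21% in PFC and 1.45 to 2.06% in striatum, and with 11 to 100 UMIs it was 1.52 to 3.52% and 4.01 to 7.04%.

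**Figure D3:**
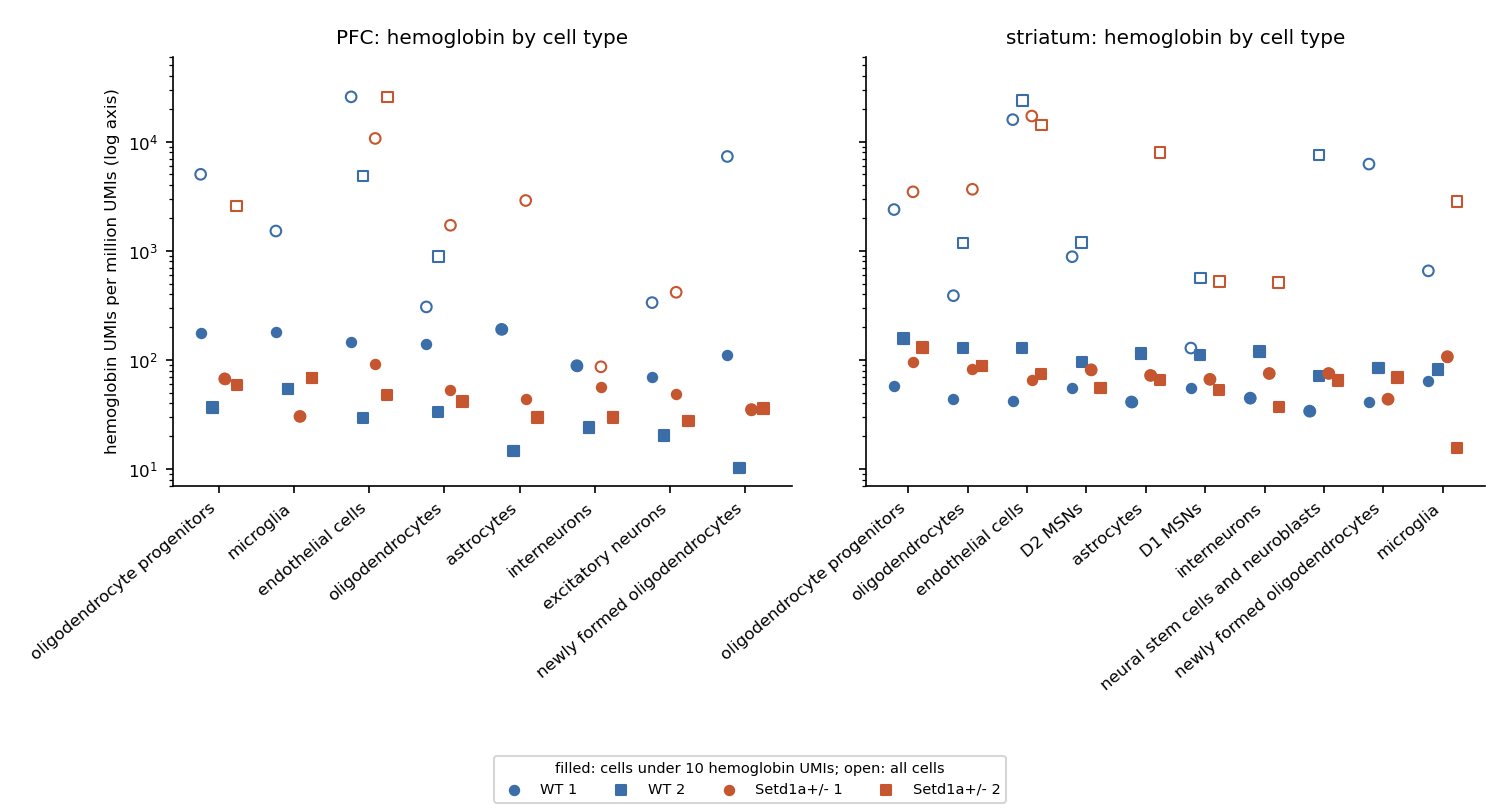
Hemoglobin CPM (log axis) by annotated cell type in PFC (left) and striatum (right), 1 point per library; open symbols are all cells, filled symbols cells under 10 hemoglobin UMIs, blue WT, orange Setd1a+/-, circles replicate 1 and squares replicate 2. Filled symbols of every type lie between 10.2 and 191 CPM, and open symbols of the endothelial cells between 4853 and 25724 CPM; types are ordered by the filled values relative to their library.

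Among cells that were not high, the order of types by CPM was set out relative to each library's own mean. In PFC the geometric mean over libraries was highest in oligodendrocyte progenitors (1.49-fold), microglia (1.40-fold) and endothelial cells (1.36-fold), followed by oligodendrocytes (1.17-fold). Astrocytes (0.909-fold), interneurons (0.904-fold), excitatory neurons (0.773-fold) and newly formed oligodendrocytes (0.721-fold) were below it. Progenitors and endothelial cells were above the mean in 4 of 4 libraries and excitatory neurons in 0 of 4, while the other types fell on both sides. Neighbours in the order overlapped: over libraries, progenitors ranged from 1.19- to 1.74-fold, microglia from 0.537- to 2.31-fold and endothelial cells from 1.23- to 1.62-fold.

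In striatum progenitors were again highest (1.48-fold, above the mean in 4 of 4), then oligodendrocytes (1.15-fold), endothelial cells (1.03-fold) and medium spiny neurons (MSNs) of the D2 class (1.00-fold). Astrocytes (0.985-fold), D1 MSNs (0.977-fold), interneurons (0.891-fold), neural stem cells and neuroblasts (0.845-fold), newly formed oligodendrocytes (0.817-fold) and microglia (0.782-fold) followed. Endothelial cells ranged from 0.842- to 1.33-fold and microglia from 0.282- to 1.41-fold, so only the progenitors lay on 1 side of the mean in every library. The CPM has all RNA of a cell as its denominator, and progenitors were the shallowest type, with a median of 1403 to 1919 UMIs per cell in PFC and 1351 to 1729 in striatum. Counted per 1000 cells that were not high, the order differed. In PFC the median over libraries was 103 hemoglobin UMIs in progenitors, 175 in endothelial cells and 265 in excitatory neurons, beside 174 over all types. In striatum it was 175 in progenitors and 341 in interneurons, beside 185 over all types.

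In PFC excitatory neurons, the principal cells of the cortex, the level that remained was 69.9, 20.2, 48.9 and 27.5 CPM in WT 1, WT 2, Setd1a+/- 1 and Setd1a+/- 2. It followed the library order of free RNA. Their 7 annotated subtypes ranged from 0.861-fold in SL-Cux2 to 0.620-fold in DL-Pou3f1 relative to their libraries, the latter from 13 UMIs in 62 cells. Only 3 of 2775 excitatory neurons were high, 1 each in DL-Tshz2, DL-Foxp2 and DL-Nnat, each with 585 to 1136 hemoglobin UMIs.

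The share of cells with any hemoglobin UMI gave another order. Among cells that were not high, 11.3 to 46.2% of excitatory neurons and 6.18 to 32.7% of endothelial cells in PFC had one. Excitatory neurons were deeper, with a median of 5732 to 9178 UMIs against 2124 to 2756. With each cell thinned to 1000 UMIs, the expected share was 2.05 to 7.23% in excitatory neurons and 3.14 to 14.2% in endothelial cells, and no annotated cell was too shallow for this. Excitatory neurons went from above the endothelial cells to below them, as in the CPM.

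The balance among the 4 genes differed between libraries. Of the alpha UMIs over all barcodes, Hba-a2 made up 46.5, 44.6, 45.0 and 43.3% in PFC WT 1, WT 2, Setd1a+/- 1 and Setd1a+/- 2 and 43.4, 43.6 and 42.7% in striatum WT 1, WT 2 and Setd1a+/- 1. In striatum Setd1a+/- 2 it made up 22.1%. That library lay below the other 7, whose range was 42.7 to 46.5%, and the other striatal library of its genotype did not share the low value. The share was as low in each fraction of that library: 22.0% in hemoglobin-high barcodes, 21.4% in free RNA (exact 95% interval 18.6 to 24.6), 21.9% in cells that were not high (14.1 to 31.5) and 21.7% in its neurons (12.7 to 33.3). In the other 7 libraries, cells that were not high gave 43.0 to 60.0%. Intervals cover counting error only.

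A second library stood apart in the balance between alpha and beta. Alpha UMIs made up 32.3, 39.2, 22.2 and 39.1% of all hemoglobin UMIs in the PFC libraries and 34.9, 38.5, 36.3 and 41.5% in the striatal ones. The low value belonged to PFC Setd1a+/- 1, and again held in each fraction, at 22.4% in high barcodes, 20.6% in free RNA (19.4 to 21.8) and 16.4% in cells that were not high (13.1 to 20.1). The other libraries' cells gave 22.9 to 28.1%. In all 8 libraries the alpha share was highest in the high barcodes, lower in free RNA and lowest in the cells that were not high. In PFC WT 1 these were 32.7, 28.6 and 22.9%, and in striatum WT 2 39.4, 35.9 and 24.2%.

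**Figure D4:**
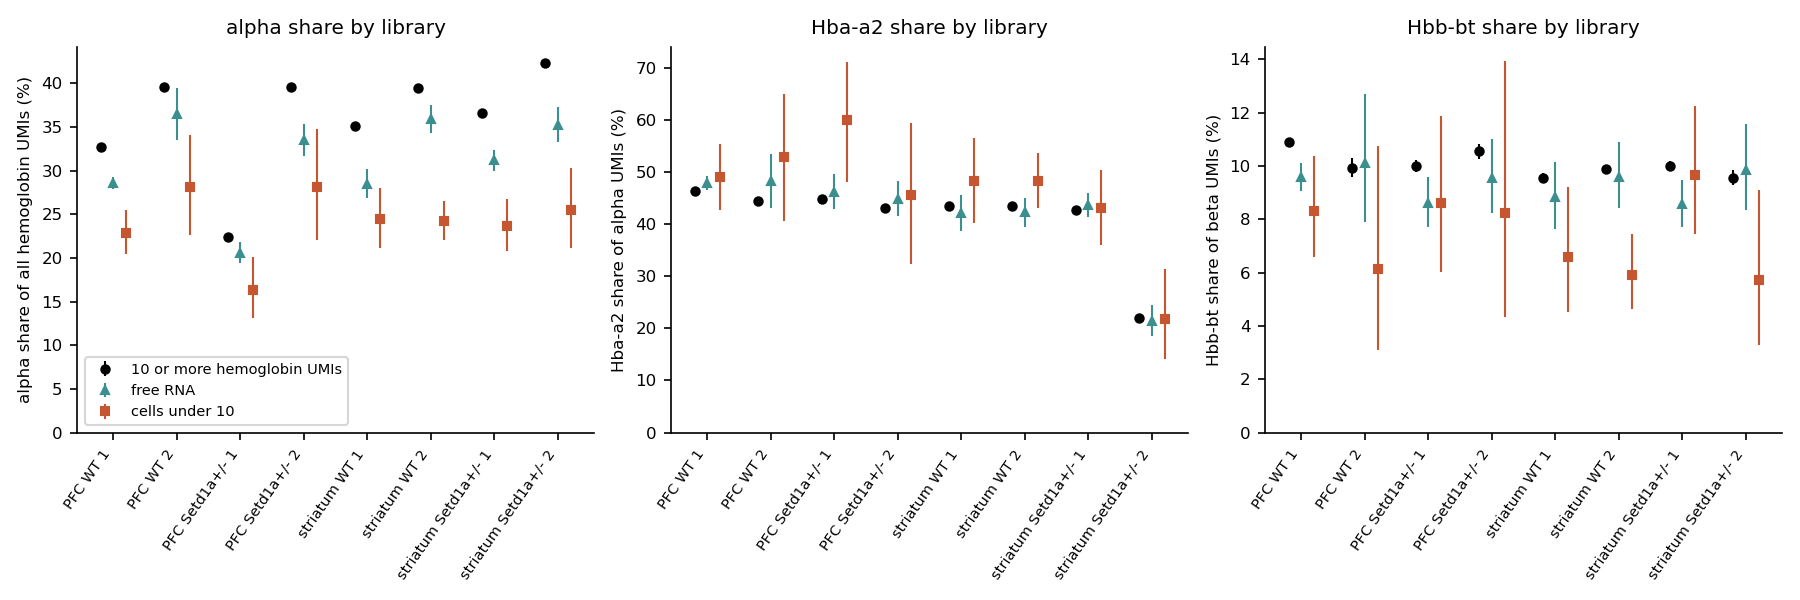
Alpha share of hemoglobin UMIs (left), Hba-a2 share of alpha UMIs (middle) and Hbb-bt share of beta UMIs (right), in percent, by library; circles are barcodes of 10 or more hemoglobin UMIs, triangles free RNA, squares cells under 10, and bars exact 95% intervals. Striatum Setd1a+/- 2 is low in Hba-a2 (22.0, 21.4 and 21.9%) and PFC Setd1a+/- 1 is low in alpha (22.4, 20.6 and 16.4%) in all 3 fractions.

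Single barcodes showed how each balance varied within a library. Among the 1278 barcodes with 100 or more hemoglobin UMIs, 71 to 245 per library, the SD of the Hba-a2 share was 1.01 to 1.24 times that of counting error alone. In striatum Setd1a+/- 2 its median was 21.8% and its range 5.41 to 33.3%, with 16.8 and 26.6% as its 10th and 90th percentiles. In the other libraries the medians were 42.2 to 45.6%, above every barcode of that library. The alpha share varied more, at 2.48 to 4.11 times counting error, and Hbb-bt, as a share of beta UMIs, at 2.51 to 3.43 times.

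Hbb-bt ran from 0% in single barcodes to a highest value of 21.6 to 32.9% per library, around pooled shares that were close between libraries, 9.49 to 10.8% over all barcodes. Its median share was higher in barcodes with an Alas2 UMI, which were 38.1 to 61.0% of these barcodes. The median was 11.1% with and 3.36% without Alas2 in PFC WT 1, 10.4 and 3.31% in striatum WT 1, and 9.86 and 3.32% in striatum Setd1a+/- 1. The median was higher with Alas2 in 8 of 8 libraries, although by 8.92 against 8.73% only in striatum Setd1a+/- 2. The share pooled over barcodes ran the other way in that library, at 9.56% with and 10.1% without Alas2, and was higher with Alas2 in the others. Barcodes with Alas2 also held more hemoglobin, with medians of 509 to 1454 UMIs against 287 to 496, and the Hbb-bt share rose with the log10 hemoglobin UMIs at a Pearson correlation of 0.25 to 0.63 within libraries, given as a description over barcodes.

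**Figure D5:**
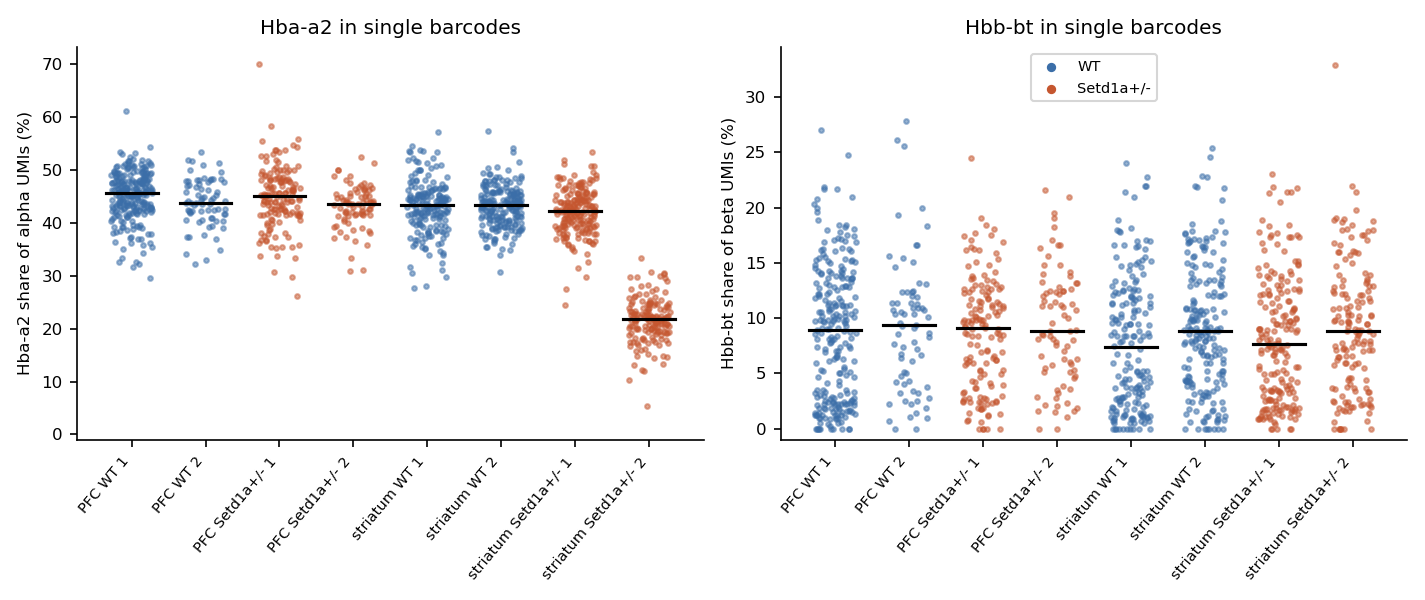
Hba-a2 share of alpha UMIs (left) and Hbb-bt share of beta UMIs (right), in percent, in single barcodes with 100 or more hemoglobin UMIs, by library; points are barcodes, black lines medians, blue WT and orange Setd1a+/-. Striatum Setd1a+/- 2 lies around 21.8% for Hba-a2, below the medians of 42.2 to 45.6% elsewhere, and Hbb-bt spreads from 0% upward in every library.

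The genotypes were compared over libraries, 2 against 2 in each tissue, with edgeR's quasi-likelihood test on summed counts and Benjamini-Hochberg adjustment. Over all annotated cells of PFC, no member passed a false discovery rate (FDR) of 0.05 with a fold change of 1.5, and 0 of 14226 genes (0%) did. The log2 fold change of Setd1a+/- over WT was -0.71 (SE 0.98) for Hba-a1, -0.80 (SE 1.02) for Hba-a2, -0.55 (SE 1.10) for Hbb-bs and -0.82 (SE 1.12) for Hbb-bt. WT 1 and WT 2 lay on either side of both Setd1a+/- libraries, and the groups overlapped. At an unadjusted p under 0.05 there were 45 genes and no member, and DESeq2 called 0 genes. The 45 genes are far below a share of 0.05 of the 14226, so finding no member among them shows little. The same holds for such counts in striatum and for the interaction below. With the replicate number as a block, described below, 204 genes were under that p and 0 were called.

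In striatum, with a fold change of 2, no member passed and 0 of 14671 genes (0%) were called; 50 genes and no member were under an unadjusted p of 0.05, and DESeq2 called 3 genes, none a member. The log2 fold changes were 0.14 (SE 0.29) for Hba-a1, -0.38 (SE 0.66) for Hba-a2, -0.13 (SE 0.53) for Hbb-bs and 0.01 (SE 0.61) for Hbb-bt. Leaving out Setd1a+/- 1, which leaves 1 library in that group, Hba-a2 (-1.65), Hbb-bs (-1.05) and Hbb-bt (-1.15) passed, in a fit that called 606 of 15119 genes (4.01%), 63 higher and 543 lower. Leaving out Setd1a+/- 2, the library with the low Hba-a2 share, Hba-a2 was at 0.28 (SE 0.22). The tissue by genotype interaction called 0 of 15113 genes (0%) and no member, with 47 genes under an unadjusted p of 0.05 and 0 by DESeq2; the members' interaction terms were 0.43 to 0.87 on the log2 scale.

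Within single cell types of PFC, 19 of 32 tests of a member in a type had enough counts. None was called, nor any of 51145 tests over all genes and types (0%). Of these, 869 tests and 2 of the members' were under an unadjusted p of 0.05, and DESeq2 called 1 test, not of a member. With the replicate number as a block, since each replicate held 1 WT and 1 Setd1a+/- sample by the methods, 2 members' tests passed among 26 called of all 51145 (0.0508%). They were Hbb-bs in astrocytes (3.85 on the log2 scale) and Hbb-bt in excitatory neurons (2.19), both higher in Setd1a+/-. PFC Setd1a+/- 1 held 1 high astrocyte and 2 high excitatory neurons, and PFC WT 1 held 1 high excitatory neuron.

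Within striatal types, 28 of 40 members' tests were possible and 4 passed, the same 4 that were called among all 73479 tests (0.00544%). All 4 were in D2 MSNs, the striatal projection neurons of the indirect pathway, and were lower in Setd1a+/-. The log2 fold change was -4.03 (SE 0.29) for Hba-a1, -4.88 (SE 0.43) for Hba-a2, -3.68 (SE 0.21) for Hbb-bs and -4.18 (SE 0.40) for Hbb-bt. Under the unadjusted cutoff used for PFC types there were 1922 tests over all genes and striatal types, and 11 of the members' 28. DESeq2 called 5 tests in striatal types, 4 of them of members. Members were selected on these sums, so both counts are a description.

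The D2 result rested on 3 cells. The WT libraries stood at 882 and 1183 CPM, the Setd1a+/- libraries at 81.2 and 55.1 CPM. Of the 1428 WT D2 MSNs 3 were high, with 1981 hemoglobin UMIs in WT 1 and 3357 and 14 in WT 2, and of the 1023 Setd1a+/- D2 MSNs none was, which allows a share of up to 0.293%. This limit covers counting error only, over cells pooled from 2 libraries. Without the high cells the WT libraries were at 55.7 and 95.6 CPM, beside 81.2 and 55.1 CPM for Setd1a+/-. The groups then overlapped and no member was called (log2 fold changes -1.01 to 0.24). In the neighbouring D1 MSNs, WT 1, WT 2, Setd1a+/- 1 and Setd1a+/- 2 held 2, 3, 0 and 5 high cells and reached 128, 564, 66.4 and 521 CPM, and no member was called. The difference between D1 and D2 MSNs was not tested.

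With the replicate block, 12 members' tests in striatal types passed, among 79 called of all 73479 (0.108%). They were the 4 in D2 MSNs, Hba-a2 in D1 MSNs (-1.16), Hbb-bs in astrocytes (3.24) and in neural stem cells and neuroblasts (-3.20), Hba-a1 (3.45) and Hbb-bs (1.35) in interneurons, Hbb-bt in progenitors (2.19), and Hba-a2 (1.21) and Hbb-bt (1.78) in oligodendrocytes, all on the log2 scale. The astrocyte, interneuron and neural stem cell values each came with a single high cell, with 741, 503 and 1274 hemoglobin UMIs.

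The Hbb-bt share of beta UMIs, a ratio within the hemoglobin RNA, was compared as 1 value per library over all barcodes. In PFC it averaged 10.3% ± 0.730 (SD, n = 2) in WT and 10.2% ± 0.367 (SD, n = 2) in Setd1a+/-, by a two-sided exact permutation test p = 1.00, where the smallest p possible is 0.333. In striatum it averaged 9.59% ± 0.145 (SD, n = 2) and 9.71% ± 0.295 (SD, n = 2), exact permutation p = 0.667 with the same smallest p. Permuting within tissues over all 8 libraries, the difference was 0.00235 percentage points (exact permutation p = 1.00, smallest possible 0.0556). No difference between genotypes was detectable with these numbers of libraries.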

How the data were processed

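Single-cell 3' libraries were counted by the authors with Cell Ranger 3.0.2 and annotated with Seurat 3.2.0 on mm10, per the submitters' processing notes; the annotation release is not given in the sources used here. The deposited files hold raw counts of UMIs per gene for 737280 barcodes in each of 8 libraries, with no normalization, and a table of annotated cells; every annotated cell had at least 800 genes and under 10% mitochondrial UMIs. From these, hemoglobin UMIs were summed per cell, type, subtype and library; CPM is per 1000000 UMIs of the same cells. Folds of other genes leave the 4 members out of the denominator.

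Cells and barcodes of 10 or more hemoglobin UMIs were separated, and barcodes of 1 to 50 UMIs were taken as free RNA. Shares carry exact Clopper-Pearson 95% intervals. Shares of cells with a UMI were also computed as the expected share after thinning to 1000 UMIs. No doublet caller was run.

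Genotypes were compared on counts summed per library (types with at least 10 cells in each library; edgeR 4.0.16, filterByExpr with a minimum count of 10, TMM, quasi-likelihood test, FDR 0.05 with a fold of 1.5 in PFC and 2 in striatum; FDR alone for the interaction). P-values measure the spread between libraries of 2 pooled mice each. The SE beside an edgeR fold change is the absolute log2 fold change divided by the square root of the test's F statistic. DESeq2 1.42.0, DESeq2's size factors, no filter, the replicate block, leaving out each library and leaving out high cells were alternatives. The methods state that each replicate held 1 sample of each genotype; deviations of same-numbered libraries from group means correlated at 0.47 in PFC and 0.56 in striatum. Named genes were the 10 largest folds with at least 20 UMIs in high outside barcodes, of which 1 is not reported here, and the 5 most alike genes in sums of at least 30 cells and 200 UMIs. Promoters and motifs came from RefSeq tables of GRCm38.p6 and positions from GENCODE. The members and lists were chosen with earlier results of these data known.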

Additional observations from a re-analysis of the deposited data

How the results depend on the processing

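The 0 calls over all annotated cells of PFC and for the interaction held under each alternative run, including each library left out (0 to 0 calls). In striatum, leaving out a library gave 0 to 3 members called (0 to 606 genes, or 0 to 4.01%). Counts within types depended on the setting: with no filter 12 members' tests passed in PFC types and 25 in striatal types (of 63 and 110 called over all genes, 0.0525% of 120054 and 0.0715% of 153950 tests), and with the replicate block 2 and 12 (of 26 and 79, 0.0508 and 0.108%). Leaving out a library gave 4 to 11 in PFC types and 13 to 29 in striatal types (over all genes 25 to 122 and 67 to 402, or 0.0453 to 0.212% and 0.0828 to 0.518% of tests), against 0 and 4 with all libraries; such a fit leaves 1 library in a group and assumes that it varies like the others. Without cells of 10 or more hemoglobin UMIs, striatal types gave 0. The D2 MSN calls passed in all other alternatives. The causes were not tested.

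The genotype difference in the Hbb-bt share changed sign with the fraction used, at -0.591 percentage points in annotated cells, -0.379 in barcodes of 1 to 50 UMIs, -0.0387 in high barcodes and 1.31 (1.18 in PFC, 1.44 in striatum; exact permutation p = 0.389 jointly) in cells that were not high, a setting chosen after seeing the data, and with a library left out (-0.631 to 0.401 in PFC, -0.0886 to 0.328 in striatum, -0.256 to 0.261 jointly). Of the alternative settings for the levels by type and for the share of free RNA, 86 kept the median within the SD between libraries. The other 30 moved it further, most on thinning or without high cells. For CPM that SD was taken with the high cells kept, where single cells widen it, so the count does not show stability. PFC progenitors, at a median of 1318 CPM with the high cells and 63.3 CPM without them, counted as kept. Levels without high cells rest on few UMIs in small types, and differences below their intervals were not detectable at this depth.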
